A study of Mus musculus with 6 samples.

Results

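Genes of the centrosome and the primary cilium were followed in mouse neural stem cells that carried a scrambled short hairpin RNA (shRNA) or an shRNA against the SoxC transcription factor Sox4. The genes were chosen by symbol: Cep, Ift, Bbs, Haus and Nphp genes with a number, and a fixed set of other named genes of these organelles, each in a row that names 1 gene and with a level of at least 1 in either condition. Of 12316 gene rows in the authors' deposited table, 94 matched by symbol, 92 of these reached the level, and 11564 rows met the same criteria of level and unique symbol over the whole table and are termed measured genes. Of the 92, Cep83os is no centrosome gene but a noncoding RNA that starts beside Cep83, and Tctn2 is annotated as a processed transcript in GENCODE release M21, while the other 90 are annotated as protein coding.

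The centrosome is the main microtubule organising centre of an animal cell: a pair of centrioles within a cloud of pericentriolar material that nucleates and anchors microtubules. In a cell that is not dividing, the older centriole docks at the membrane and templates the primary cilium, which is built by intraflagellar transport, gated by a transition zone, and used by neural precursors to receive Hedgehog signals. Loss of centriole duplication or pericentriolar proteins such as Aspm, Cdk5rap2 and Stil is known to cause small brains, and loss of cilium proteins causes the ciliopathies.

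All cells were commercial embryonic neural stem cells of the CD-1 strain, taken at E14.5, grown on laminin with EGF and bFGF, transduced with lentivirus and kept under puromycin at 0.5 µg/mL. There were 2 libraries with the scrambled hairpin SHC002, 2 with the Sox4 hairpin TRCN0000012078 and 2 with the Sox4 hairpin TRCN0000012080. The series' design text says that duplicates came from different passages and speaks of 1 shRNA against Sox4, where the labels give 2, and nothing says that passages were separate cultures. The deposited comparison gives 1 level per gene for a first and a second condition, does not name these conditions, and holds no value per library, so no SD or n can be given and the depth is unknown. The authors' deposited table lists Sox4 itself at 126.8 and 83.9, in this order, with a q of 0.0543 and no call. Of 11 neural stem cell markers 10 were measured, of which 2 rose and 2 fell. The intermediate filament gene Nes rose from 98.1 to 169.8 and Notch1, a receptor of precursors, rose 1.52-fold, while the lipid-binding Fabp7 fell from 4620 to 2286 and the Notch target Hes5 from 37.3 to 14.4 in the authors' deposited table. Not called were, among others, Vim at 709 and 775 and Sox2 at 59.7 and 51.1 in the authors' deposited table. None of the 6 markers listed for fibroblasts, 6 for microglia and 4 for endothelial cells is among the rows analysed here.

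The centrosome and cilium genes differed little between the conditions. A gene is termed called, and is said to rise or fall, where the authors' flag for significance (a Cuffdiff q up to 0.05) is set, and a fold is always that of the second over the first condition. Of the 92 genes 1 rose, Cep164, or 1.09%, against 3.29% of all measured genes that rose. By Cuffdiff 0 fell, against 1.89% of all measured genes. At an unadjusted Cuffdiff p under 0.05 there were 11 higher genes, or 12.0%, against 10.1% of all measured genes, and 0 lower genes against 7.75%. The share of higher genes was thus close to the background and the share of lower genes was under it. The deposited log2 folds ran from -0.54 for Cep44 to 0.68 for Cep164 in the authors' deposited table, and 56 of the 92 were positive. That is 60.9%, against 50.1% of all measured genes. The median log2 ratio computed here, with a pseudocount of 1, was 0.066 over these genes and 0.00035 over all measured genes. For 53 of the 92 the absolute log2 fold was under 0.2, and for 6 it reached 0.55, the smallest that was called anywhere among measured genes.

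**Figure D1:**
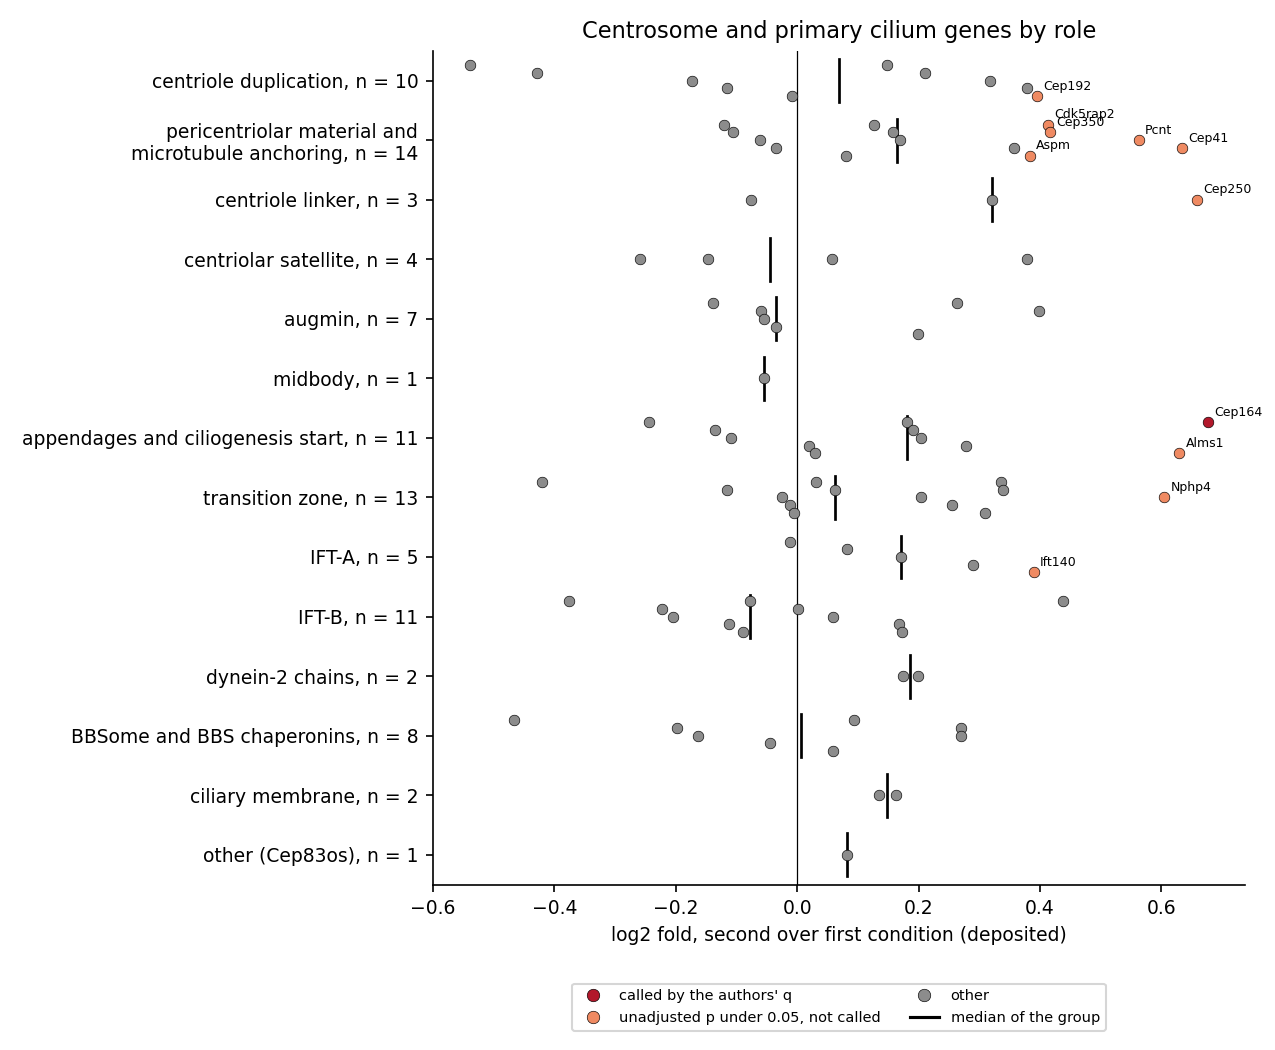
Deposited log2 fold of the second over the first condition (x axis) for each of the 92 genes, in rows by role, with a bar at each role's median. Cep164 at 0.68 is the only called gene, and all 11 genes with an unadjusted p under 0.05 lie right of 0.

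Cep164, a distal appendage protein by which the mother centriole docks at the membrane (chromosome 9, 45766946 to 45828691, minus strand, GRCm38), had levels of 3.77 and 6.02, first condition before second as in every pair below, in the authors' deposited table. It rose 1.60-fold there, and the authors' deposited table gives a log2 fold of 0.68 and a Cuffdiff q of 0.0458. This q lies close under the threshold. No exon of another annotated gene overlaps those of Cep164. Next by p were Cep250, which holds the centrioles together (chromosome 2, 155956458 to 155998900), at 2.24 and 3.53, and Alms1, a protein at the base of the cilium named for Alström syndrome (chromosome 6, 85587531 to 85702753), at 2.06 and 3.19 in the authors' deposited table. Both were outside the call, as the authors' deposited table gives their q as 0.0643 and 0.0738.

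Levels were low to moderate throughout. In the authors' deposited table they ran from 1.39 to 31.4 and from 1.48 to 30.7. The medians of 6.62 and 6.78 were below those of all measured genes, 13.6 and 13.7. Comparing levels between genes assumes that the deposited levels are FPKM, that is, scaled to transcript length. On that scale the highest were Haus1, a subunit of the augmin complex, at 31.4 and 30.7, and Ift22 and Ift20, subunits of the IFT-B train, at 26.9 and 27.0 and at 28.7 and 24.5 in the authors' deposited table. Cdk5rap2, a scaffold of the pericentriolar material that recruits gamma-tubulin complexes, stood at 21.6 and 28.7, and Ahi1, a transition zone protein of Joubert syndrome, at 23.3 and 24.3 in the authors' deposited table. Of these 5 genes only Cdk5rap2 had an unadjusted Cuffdiff p under 0.05, at 0.0238. At the level threshold, Bbs10, a chaperonin-like gene of Bardet-Biedl syndrome, was just inside with 1.42 and 1.48, and Cep170b with 0.656 and 0.930 and Cep112 with 0.484 and 0.809 were the genes just outside in the authors' deposited table. Among the 92 genes, 32 had a mean level under 5, a range in which 6.91% of all measured genes were called in either direction, and 1 of the 32 was called. Another 44 lay from 5 to under 15, where 4.95% of all measured genes were called, and by Cuffdiff 0 of the 44 were called while 5 had an unadjusted p under 0.05.

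**Figure D2:**
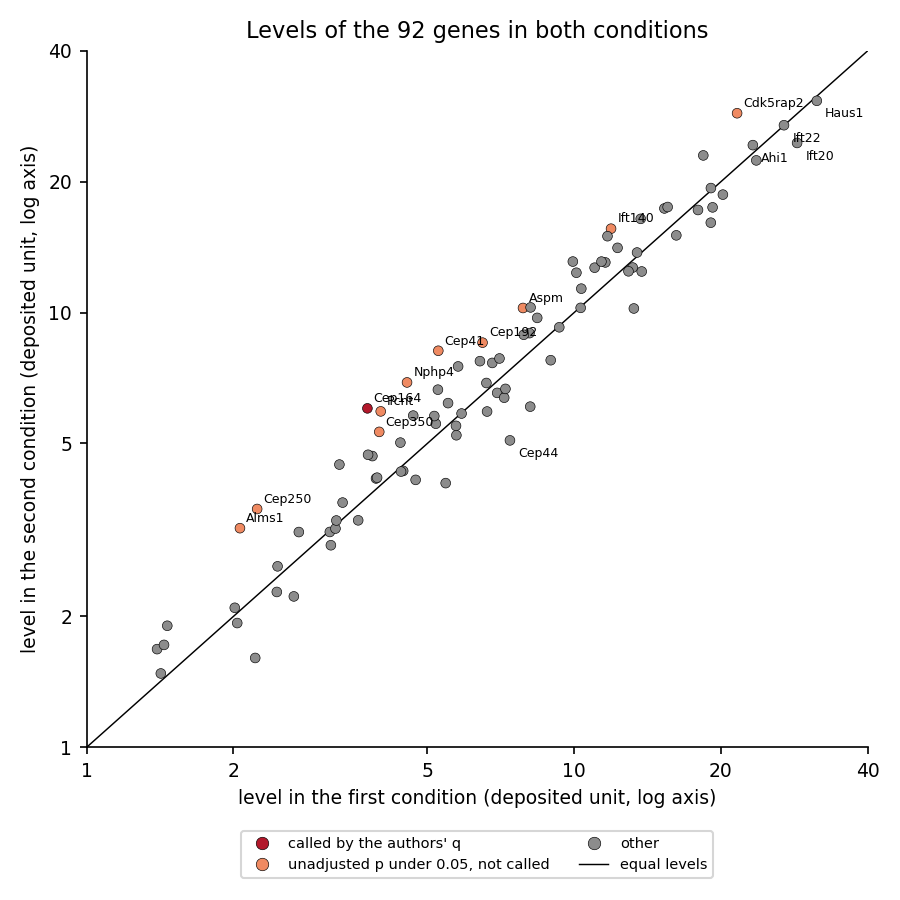
Level of each of the 92 genes in the first (x axis) and second (y axis) condition, in the unit of the deposited columns on log axes, with the line of equal levels. The points follow the line from 1.39 to 31.4, and the coloured points with an unadjusted p under 0.05 lie above it.

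Promoters were examined because cilium genes are known to share the X-box, a palindrome bound by RFX transcription factors. RefSeq promoter windows on GRCm38.p6, from 250 bases before to 50 bases after a gene's start, were found for 78 of the 92 genes in 94 windows. The X-box was searched as GTTNCC and GGNAAC separated by 0 to 3 bases. It stood in 8 of the 94 windows, or 8.51%, against 0.932% of 11156 windows of measured genes and 0.804% of all 32851 windows. The 8 matches are shown with 30 bases each, since the choice of genes used no sequence and this motif is more frequent in their windows. The X-box is in capitals, and each run is written 5′ to 3′ on the gene's strand.
Ahi1, chr10:20952560-20952589, plus strand: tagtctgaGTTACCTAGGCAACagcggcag
Bbs7, chr3:36613489-36613518, minus strand: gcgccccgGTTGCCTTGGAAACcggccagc
Cep19, chr16:32099803-32099832, plus strand: agccttctGTTGCCTTGGGAACgatcctcg
Cep41, chr6:30693858-30693887, minus strand: gtcccgcGTTGCCCTTGGCAACcattgagc
Ift57, chr16:49699226-49699255, plus strand: gccctgcgGTTGCCTGGTAACggtggggac
Mks1, chr11:87853183-87853212, plus strand: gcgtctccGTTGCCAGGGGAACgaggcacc
Tctn1, chr5:122264411-122264440, minus strand: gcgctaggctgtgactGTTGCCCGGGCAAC
Tctn3, chr19:40612350-40612379, minus strand: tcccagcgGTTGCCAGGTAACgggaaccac

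The X-box of Cep41 started 131 bases, that of Bbs7 121 bases and that of Mks1 24 bases before the RefSeq start. Those of Ahi1, Cep19 and Tctn1 started 21, 22 and 36 bases after it. The 8 genes did not move together: Cep41, which encodes a centriole and cilium protein of Joubert syndrome, had a log2 fold of 0.63, while Ift57 had -0.20 and Cep19 -0.24 in the authors' deposited table. Their median log2 ratio was -0.0063, against 0.088 for the others with a window. This difference was not tested and takes no account of transcript length, which is described below. A single X-box arm, GTTGCC on either strand, stood in 28.7% of the windows of these genes, against 12.5% of windows of measured genes and 12.5% of all windows. This arm is part of all 8 X-box matches above. It was found for 25 of the 78 genes and for 4 of the 9 genes that had a window and an unadjusted p under 0.05, namely Cep164, Cep41, Nphp4 and Ift140. The windows of the other 3 are given with the arm in capitals, because these genes are among the 11 of lowest p.
Cep164, chr9:45828614-45828643, minus strand: tgctggtcgctgcagGGCAACaccccggcg
Ift140, chr17:25015965-25015994, plus strand: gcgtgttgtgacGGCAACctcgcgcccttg
Nphp4, chr4:152478131-152478160, plus strand: tggtgcatcccgGTTGCCagctgatgttgg

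The arm started 35 bases after the RefSeq start in Cep164, 1 base after it in Nphp4 and 109 bases before it in Ift140. The median log2 ratio was 0.079 for genes with the arm and 0.065 for genes without. A SOX site, searched as AACAAAG on both strands, stood in 6.38% of the windows of these genes, 3.93% of windows of measured genes and 5.85% of all windows. It was found for 6 genes, Bbs1, Haus4, Haus5, Ift27, Ift46 and Mks1, of which 0 were called by Cuffdiff and 0 had an unadjusted p under 0.05. A forkhead site, TGTTTAC on both strands, stood in 0 of the 94 windows and in 2.43% of windows of measured genes. An E2F site, TTTCCCGC, stood in 3.19% and 2.07%, and an ETS site, CCGGAAGT, in 6.38% and 8.17% of these windows, both strands searched. A longer arm, GTTGCCAT, stood in 2.13% and 1.07%, and a variant X-box, with any base at a position of the arm where the X-box has T but only purines or pyrimidines at others, in 5.32% and 1.07%. The 5 genes with the variant, Ahi1, Cep41, Ift57, Tctn1 and Tctn3, are among the 8 with the X-box. A match is only a run of letters, and no binding was measured.

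**Figure D3:**
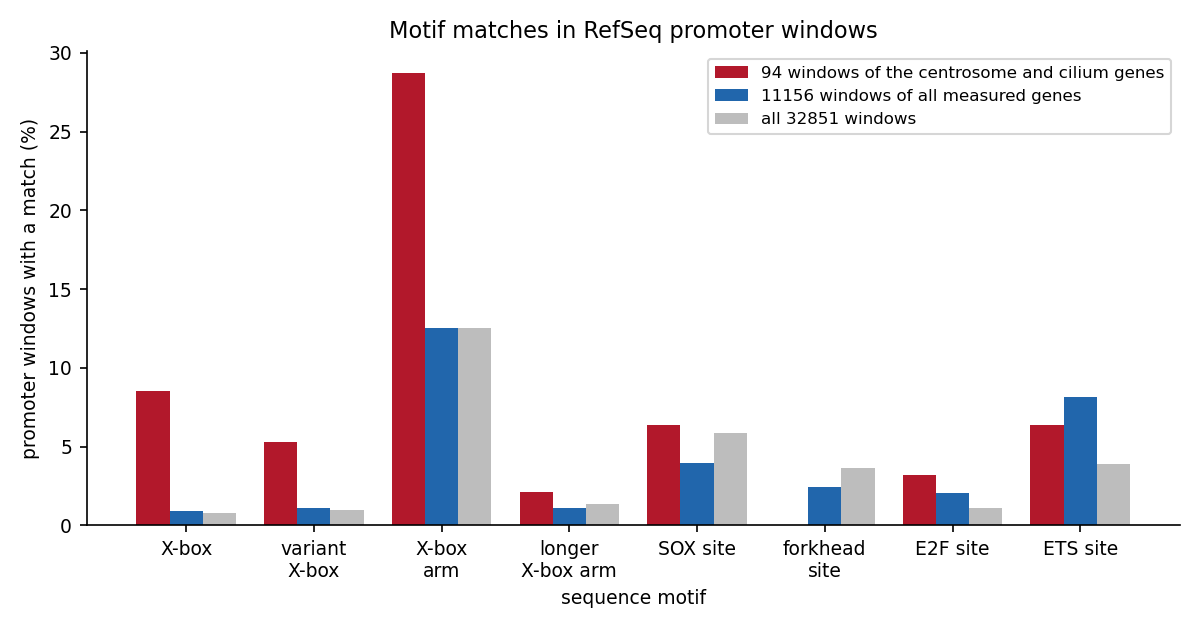
Share of promoter windows with a match (y axis, percent, from 0) for each of 8 motifs, in windows of the centrosome and cilium genes, of all measured genes and of all RefSeq genes. The X-box and its arm are more frequent in the windows of these genes, at 8.51% and 28.7%, than in those of measured genes, at 0.932% and 12.5%.

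Genes of the pericentriolar material and of microtubule anchoring held the most genes of low p. Of 14, 0 were called by Cuffdiff, 5 had an unadjusted p under 0.05, all higher, and the median log2 ratio was 0.15. The 5 are 35.7% of the 14, against 10.1% of all measured genes that were higher. Of the 14, 7 belong to the longest 10% of transcripts, where this share was 32.2% over all measured genes. Pcnt, Cdk5rap2, Aspm and Cep350 are among these 7. Cep41, the other of the 5, lies outside the longest 10%. It was placed in this group here, though it is described above as a centriole and cilium protein. Pcnt, pericentrin, the scaffold that organises this material (chromosome 10, 76351263 to 76442786), stood at 4.01 and 5.92 in the authors' deposited table, with a q of 0.0857. Cep41 (chromosome 6, 30653457 to 30693749) stood at 5.26 and 8.17 in the authors' deposited table, where its q was 0.0834. Aspm, which acts at spindle poles and at microtubule minus ends and is mutated in primary microcephaly, stood at 7.85 and 10.2 in the authors' deposited table, with a p of 0.0386 and a q of 0.270. Cep350 stood at 3.98 and 5.31 in the authors' deposited table, with a p of 0.0303. Nin and Ninl, which anchor microtubules at the centrosome, stood nearer to equal, at 7.03 and 7.84 and at 3.35 and 3.65 in the authors' deposited table. Exons of Pcnt overlap 1700094J05Rik on the other strand and AC141477.1 on the same strand. Those of Cdk5rap2 overlap a pseudogene, Ywhaq-ps3, on the same strand. In the shared stretches strand, if used, could separate reads of Pcnt from those of 1700094J05Rik, but not reads of the same-strand pairs.

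Centriole duplication genes went both ways. Of 10, 5 had a positive fold, 0 were called by Cuffdiff and 1 had an unadjusted p under 0.05. That gene, Cep192, recruits the duplication kinase Plk4 and stood at 6.49 and 8.52 in the authors' deposited table, with a q of 0.278. Cep44, a centriole protein (chromosome 8, 56531522 to 56551047), had the most negative fold of all 92 genes, at 7.38 and 5.08 in the authors' deposited table with a p of 0.0543. Stil, which builds the cartwheel of the new centriole, stood at 8.10 and 8.97, and Cep152, a Plk4 receptor, at 1.46 and 1.90 in the authors' deposited table. Cep97, a cap protein that holds back cilium growth, stood at 5.45 and 4.05 in the authors' deposited table, with a p of 0.354. Cep97 thus had a fold larger in size than that of Cep192, in the other direction, and a higher p.

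Of the 3 centriole linker genes, Cep68 stood at 18.4 and 23.0 and Cntln at 2.04 and 1.93 in the authors' deposited table, beside Cep250. Exons of Cep250 overlap 6430550D23Rik on the other strand. Among the 4 centriolar satellite genes, Pcm1, the scaffold of these granules, stood at 13.8 and 12.4 and Cep131 at 5.78 and 7.52 in the authors' deposited table. Cep131 had a p of 0.0885, and 0 of the 4 had a Cuffdiff p under 0.05 or a call.

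Augmin, the complex that lets new microtubules branch from old ones in the spindle, showed 0 called genes of 7 by Cuffdiff and 0 with an unadjusted p under 0.05. Its subunits were among the more abundant of the 92 genes, with a median level of 13.7 and 16.4, and 4 of the 7 had negative folds. Haus4 had the largest fold of the complex, at 9.94 and 13.1 in the authors' deposited table with a p of 0.0935. Haus1, Haus5 and Haus7 had log2 folds between -0.060 and -0.035 in the authors' deposited table. Cep55, which recruits the membrane-cutting machinery to the midbody at the end of division, stood at 12.9 and 12.4 in the authors' deposited table. Markers of cells in G2 and M phase, when centrosomes are largest, are set beside these values: of 10 measured, 5 had a positive fold, 0 were called by Cuffdiff and 0 had an unadjusted p under 0.05. Their summed level was 513 and then 542.

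Genes of the appendages and of the start of ciliogenesis included Cep164 and Alms1. Of 11, 1 rose, 2 had an unadjusted p under 0.05, 8 had a positive fold, and the median log2 ratio was 0.16. Partners of Cep164 at the distal appendages were not called: Cep83, which brings Cep164 to the appendage, stood at 5.73 and 5.22 and Cep89 at 13.5 and 13.7 in the authors' deposited table. Ttbk2, the kinase that Cep164 recruits to start cilium growth, stood at 4.40 and 5.02 in the authors' deposited table, with a p of 0.341. Odf2, of the subdistal appendages, stood at 19.1 and 19.3, and Cep19, which recruits the first trains to the base, at 19.1 and 16.1 in the authors' deposited table. The difference between Cep164 and these partners was not tested.

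Transition zone genes were spread about a small positive median of 0.059. Of 13, 0 were called by Cuffdiff, 8 had a positive fold and 1 had an unadjusted p under 0.05. This was Nphp4, a nephronophthisis gene of the transition zone (chromosome 4, 152476706 to 152563183), at 4.54 and 6.91 in the authors' deposited table, where its q was 0.0939. The B9 and tectonic module held both flat and higher values: Mks1 stood at 3.15 and 3.13, Tctn1 at 3.24 and 3.18 and Tctn3 at 5.87 and 5.86, while Tctn2 stood at 8.14 and 10.3 and Tmem231 at 5.25 and 6.65 in the authors' deposited table. The p of Tctn2 was 0.122 and that of Tmem231 0.145. Tmem216 stood at 8.12 and 6.07 in the authors' deposited table, and its exons overlap Cpsf7 on the other strand.

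Intraflagellar transport moves cargo along the cilium, with IFT-B trains going out and IFT-A trains, pulled by dynein-2, coming back. Of the 5 IFT-A genes 4 had a positive fold, with a median log2 ratio of 0.16, and Ift140 stood at 11.9 and 15.6 in the authors' deposited table with a p of 0.0373 and a q of 0.265. Of the 11 IFT-B genes 5 had a positive fold, with a median of -0.075, and 0 had a Cuffdiff call or an unadjusted p under 0.05. Within IFT-B, Ift88 stood at 3.30 and 4.47 and Ift46 at 13.3 and 10.2 in the authors' deposited table, with a p of 0.0824 and 0.0669. The IFT-A genes had a median transcript length of 4501 nt and the IFT-B genes of 2950 nt, and the difference between them was not tested. The dynein-2 chains Wdr34 at 7.88 and 8.89 and Wdr60 at 2.72 and 3.13 had positive folds in the authors' deposited table, both with a p above 0.4. Exons of Ift88 overlap Ift88os on the other strand.

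The BBSome, a coat that carries membrane proteins out of the cilium, and its chaperonins showed 0 called genes of 8 by Cuffdiff and 0 with an unadjusted p under 0.05. Bbs5 had the largest fold, at 2.22 and 1.60 in the authors' deposited table with a p of 0.227, and Bbs7, one of its partners in the coat, stood at 6.41 and 7.73 there. Of the ciliary membrane genes, Arl13b, a small GTPase used as a marker of the cilium, stood at 5.16 and 5.78, and Inpp5e, the phosphatase it retains there, at 10.3 and 11.3 in the authors' deposited table. The noncoding Cep83os stood at 2.46 and 2.61 in the authors' deposited table.

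The 11 genes with the lowest p were mostly long transcripts. Transcript length was taken from the longest coding transcript of GENCODE release M21, or the longest of any kind for a noncoding gene, and was known for all 92 genes and for 11507 measured genes. Over the 92 genes the log2 fold had a Spearman correlation with length of 0.41 and a Pearson correlation with log10 length of 0.45, and over the 11507 genes of 0.33 and 0.27. These are across genes of the same libraries, which are not independent replicates, and are given as a description. Of the 92 genes 15 belonged to the longest 10% of measured genes, of 6874 nt and more, and 8 of the 15, or 53.3%, had an unadjusted p under 0.05 and a higher level in the second condition. Among all 1151 genes of that length the share was 32.2%. The 8 were Cep250, Alms1, Pcnt, Cdk5rap2, Cep350, Ift140, Aspm and Cep192, with transcripts from 6942 nt for Ift140 to 13307 nt for Cep350. By Cuffdiff 0 of the 15 were called, while 13.8% of all genes of that length rose.

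Outside the longest 10%, 3 of 77 genes, Cep164, Cep41 and Nphp4, had an unadjusted p under 0.05, or 3.90%, against 7.66% of all such genes that were higher. Median log2 ratios were above those of all genes in both groups of length, unlike this share. They were 0.34 for the 15 longest against 0.21 for all genes of that length, and 0.038 for the other 77 against -0.020 for all other genes. Within the 77, Cep164 has 6105 nt, Nphp4 5027 nt and Cep41 3447 nt. In the 10% of length that holds each, 17.7%, 11.1% and 9.04% of all genes were higher at an unadjusted Cuffdiff p under 0.05. At the short end, 3 of 14 genes in the shortest 30%, or 21.4%, had a positive fold, against 33.7% of all genes of that length. With the median of all genes in the same 10% of length taken off, the median of the 92 genes was 0.034. The part of transcript length in the values of single genes was not tested.

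**Figure D4:**
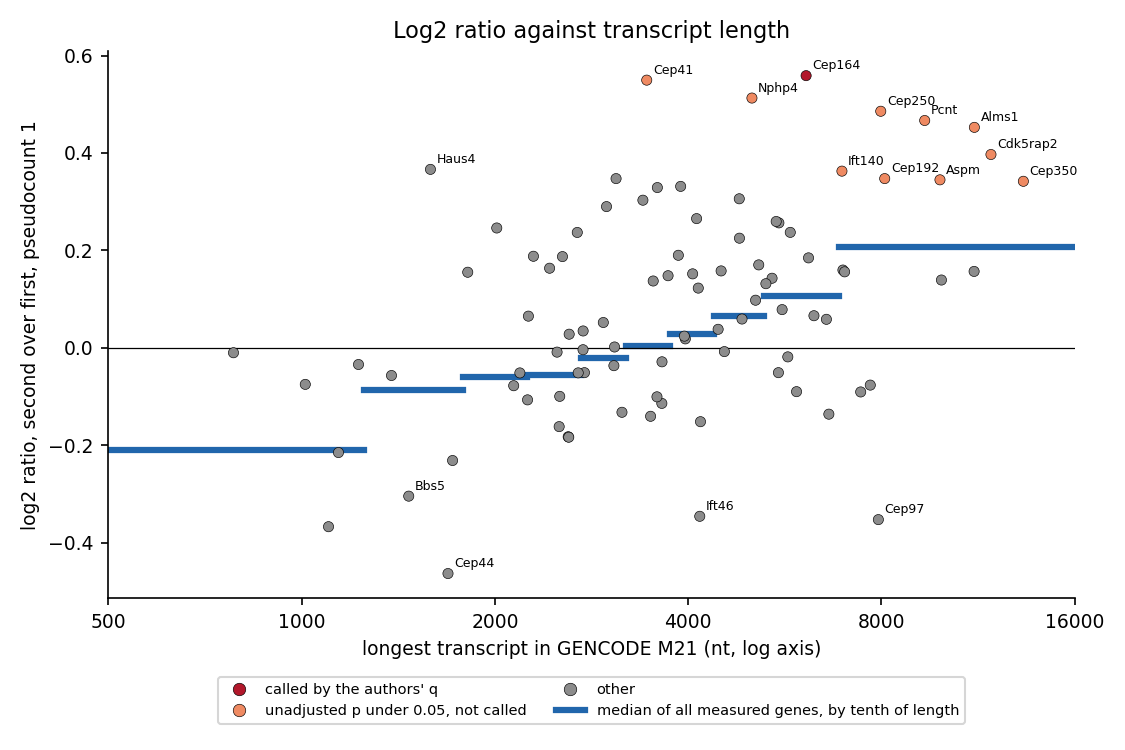
Log2 ratio of the second over the first condition with a pseudocount of 1 (y axis) against the longest transcript (x axis, nt, log axis) for each of the 92 genes, with the median of all measured genes in each 10% of length as blue bars. The blue bars climb from -0.21 for the shortest to 0.21 for the longest transcripts, and 8 of the 11 genes with an unadjusted p under 0.05 lie over the last bar.

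Other genes of the same organelles were taken from lists of 130 genes, 110 of them measured. Of these 5 rose and 1 fell, beside the background of 3.29% and 1.89% given above. Mzt1, a small protein that fits gamma-tubulin ring complexes for activation, fell from 12.3 to 7.33, for which the authors' deposited table gives a log2 fold of -0.74 and a q of 0.0363. It was the only call among 31 other centrosome genes. The core subunit Tubg1 stood at 37.8 and 45.0, the duplication kinase Plk4 at 11.9 and 13.6 and its cartwheel partner Sass6 at 4.90 and 4.73 in the authors' deposited table. Among 19 other transport, BBSome and motor genes 0 were called by Cuffdiff, with 2 higher and 2 lower at an unadjusted p under 0.05.

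Among 30 other transition zone and ciliary membrane genes 3 rose and 0 fell, beside 3.29% and 1.89% of all measured genes. Of the 30, 17 had a positive fold, and the median log2 ratio was 0.048. In the authors' deposited table, Tulp3, the adaptor by which IFT-A brings receptors into the cilium (chromosome 6, 128321161 to 128355851), rose from 11.1 to 19.5 at a q of 0.00708. Evc2, part of a complex at the cilium base that passes on Hedgehog signals (chromosome 5, 37338499 to 37425055), had a level of 6.48 and then 11.9 in the authors' deposited table and rose at a q of 0.00304. Pkd1, the polycystin of cilia whose loss causes cystic kidneys (chromosome 17, 24549834 to 24596508), rose 2.08-fold, with 6.37 and 13.2 in the authors' deposited table, and its transcript of 14164 nt is among the longest 10%. Exons of Pkd1 overlap Tsc2 on the other strand. Tulp3 and Evc2, of 3374 and 4091 nt, lie outside the longest 10%.

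Among 11 measured genes of a list of RFX and other transcription factors, 10 had a positive fold and 1, Foxj1, rose. Over all measured genes 50.1% had a positive fold, and the 10 include Rfx5 and Myb, with log2 folds of 0.0014 and 0.055. Foxj1, the master regulator of motile cilia (chromosome 11, 116330704 to 116335399), stood at 18.1 and 30.1 in the authors' deposited table, a 1.66-fold rise with a q of 0.00528. Rfx4, the most abundant RFX factor here, stood at 120 and 145 in the authors' deposited table with a p of 0.129. Rfx7 at 9.29 and 12.5 and Rfx1 at 6.59 and 8.85 had a p of 0.0211 and 0.0431 and were not called in the authors' deposited table. Markers of ependymal and other multiciliated cells are set beside Foxj1. Of 18 listed, Foxj1 included, 4 have a row and 2 were measured, Foxj1 and Rsph9, the latter at 4.74 and 6.61 in the authors' deposited table with a p of 0.142. Rsph1 stood at 0.186 and 0.705 and the dynein gene Dnah11 at 0.381 and 0.678 in the authors' deposited table, both under the level threshold. Their unadjusted Cuffdiff p was 0.0363 and 0.0724, and neither was called. All 4 markers with a row were higher in the second condition. The part of a multiciliated fraction in the rise of Foxj1 was not tested.

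Of 9 measured Hedgehog genes that act through the cilium, 8 had a positive fold, against 50.1% of all measured genes. Of the 9, 1 rose, Gli3, with 3.41 and 5.94 in the authors' deposited table and a q of 0.00528. Gli2 stood at 2.23 and 3.58 with a q of 0.0595, and the receptor Ptch1, itself a Hedgehog target, at 35.7 and 41.6 in the authors' deposited table. Gli3, of 8170 nt, is among the longest 10% of transcripts. Among 12 measured microcephaly genes outside the 92, 0 were called by Cuffdiff, with 1 higher and 1 lower at an unadjusted p under 0.05. These were Kif14, a kinesin of cytokinesis, at 2.52 and 3.63, and Mfsd2a, a lipid transporter, at 96.2 and 71.6 in the authors' deposited table. In these bulk RNA values, a change in the share of cells of a type and a change of RNA per cell cannot be told apart.

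**Figure D5:**
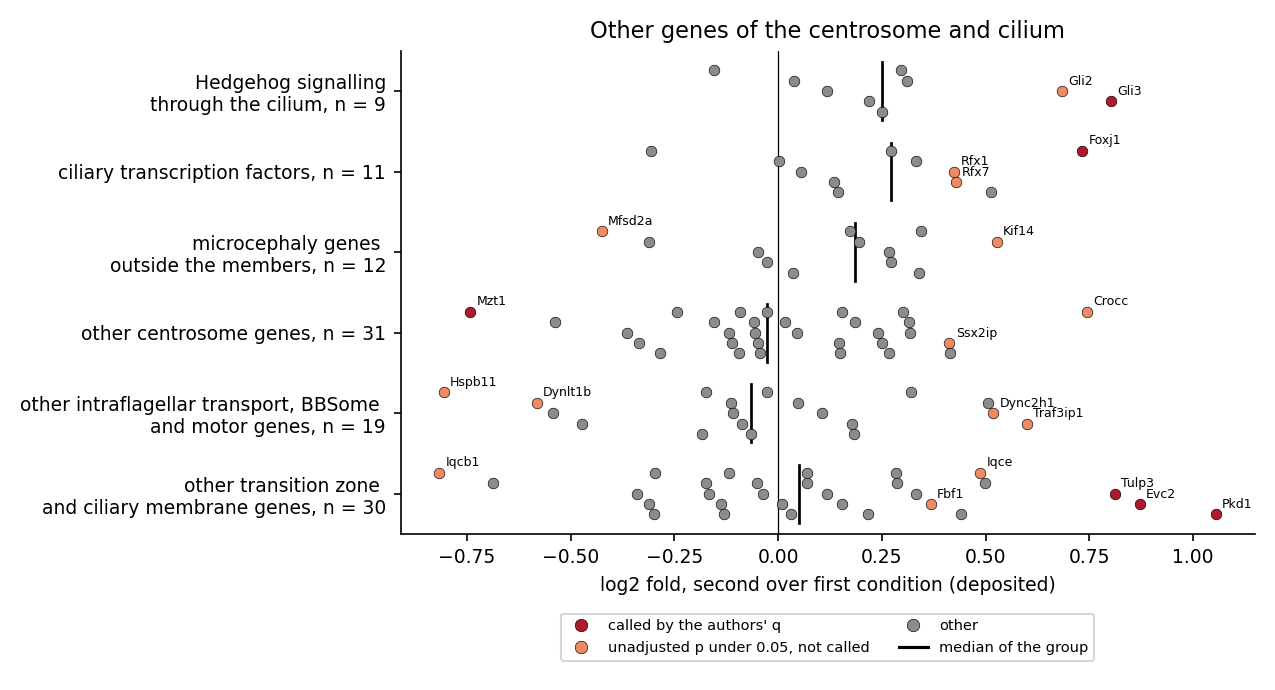
Deposited log2 fold of the second over the first condition (x axis) for the 110 measured genes of 6 lists of other centrosome and cilium genes, in rows by list (genes on 2 lists appear in both), with a bar at each list's median. Pkd1, Evc2, Tulp3, Gli3 and Foxj1 are the 5 rises and Mzt1 is the fall.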

How the data were processed

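Poly(A) RNA of 6 libraries was made into libraries with a SOLiD kit for total RNA, per the protocols in the labels. TopHat2 2.0.9, Cufflinks 2.2.1, Cuffdiff and mm10 are named in the submitters' processing notes. For annotation, strand and pooling of libraries, the answer is "not given in the sources used here". Per the file headers, the deposited table holds a level per condition, a log2 fold, a test statistic (a score), a p-value and a q-value. The header states no unit for the deposited levels, which were read as FPKM because Cuffdiff writes FPKM there. Since the table holds no value per library, no model was refitted and the depth is unknown. The authors' q and flag are the only test.

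Computed here, with Python 3.11.15, numpy 2.4.6 and pandas 2.3.3, were counts by role, medians of log2 ratios with a pseudocount of 1, Benjamini-Hochberg values over measured genes, and motif searches in RefSeq promoter windows (GRCm38.p6). Rows with several genes or with a symbol that stands in several rows, 248 in number, were left out. Positions, lengths and exon overlaps came from GENCODE M21 on GRCm38, in which all 92 symbols were found as written, and which may differ from the annotation behind the deposited levels. The Benjamini-Hochberg step and the subtraction of the median of the same length were tested on simulated data, and the other steps were not. The genes and lists were chosen with earlier results of these data known. Genes named follow a rule: all called, all with an unadjusted p under 0.05, the 5 highest levels, those at the level threshold, the largest fold in each role, and called genes of related lists. Others were named for their role after their values were seen. The 8 motifs were also chosen after the data were seen.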

Additional observations from a re-analysis of the deposited data

How the results depend on the processing

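The single rise among the 92 genes, Cep164, remained with q recomputed over measured genes (0.0386). It stayed under a minimum level of 5, no minimum, without the longest 10% of transcripts, without genes with exon overlaps, and without Cep83os. The last of these settings was chosen after the data were seen. They keep the authors' flag and only change the set of genes, and Cep164 belongs to each set, so they could not remove it. The count of rises was 0 at a q of 0.01 and 0 when a log2 fold of 1 or more in size was asked for, as stricter thresholds can only give fewer. The count of falls was 0 under each of these settings, of which only the recomputed q and no minimum level could have given another count. With q recomputed, Cep250 came to 0.0542. The median log2 ratio of 0.066 became 0.080 with a pseudocount of 0.1, 0.028 with a pseudocount of 10, 0.13 with a minimum level of 5, 0.13 without the 29 genes with exon overlaps, 0.038 without the longest 10% and 0.034 with the median of the same length taken off, and it was positive under each. The median of the 15 longest genes was 0.34, and 0.38 with a pseudocount of 0.1. Of the related genes, the 5 rises were 3 without the longest 10% and the 1 fall was 0 at a q of 0.01. Since a pseudocount leaves the sign of a ratio as it is, the sign of single genes was not put to a test by it. No paired analysis was possible because the deposited columns carry no replicate: each condition has 1 level. Leaving out single replicates was therefore not run, and no limit from depth can be stated.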

Other observations

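A few rows fell outside the rule because of how they are named. Haus3, the remaining augmin subunit, shares its row with Poln and stood at 11.9 and 10.3 in the authors' deposited table, with a p of 0.343. B9d1, a transition zone partner of Mks1, stands in 3 rows of the authors' deposited table and was therefore not counted. Its called row stood at 1.02 and 2.42 in the authors' deposited table, where its q was 0.0187, and its other rows, at 5.66 and 9.19 and at 0.429 and 1.72, were not called. Cep290 and Rpgrip1, listed for the transition zone, and Cep295, listed for centriole duplication, have no row under these symbols and were not measured. Crocc, which encodes rootletin, a partner of Cep250 in the centriole linker, had a log2 fold of 0.74 in the authors' deposited table and a q of 0.0746. Traf3ip1, an IFT-B subunit outside the 92 genes, stood at 4.78 and 7.24, while Hspb11, another IFT-B subunit, stood at 14.8 and 8.45 in the authors' deposited table. Their p of 0.0083 and 0.0164 left both outside the call.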
